A study of Mus musculus with 24 samples.

Results

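The comparison set brown adipose tissue of C57BL/6J mice given a long-acting agonist of the receptor for glucose-dependent insulinotropic polypeptide, GIPR, against tissue of mice given vehicle. The labels call the agonist LAGIPRA and the controls Vehicle, and there were 6 samples of each, so 12 of the 24 samples of the series entered the comparison. The other 12 samples, 6 from mice given tirzepatide (labelled TZP) and 6 from vehicle-treated mice that were pair-fed (labelled PairFedVehicle), shared the estimate of the spread between samples. The series' title describes the mice as obese and insulin resistant, and the labels give no dose, duration, age, sex or diet. The labels do not say whether each sample came from its own animal, so the p-values measure the spread between these samples, part of which may be technical.

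All samples of a treatment were compared, and no measured value was used to choose them. A further question was whether LAGIPRA libraries 1 to 3 and libraries 4 to 6 gave the same differences from Vehicle. The labels attach no batch, litter or day to the replicate numbers. The table held 23017 genes, of which 17263 were tested after the 25% of genes with the lowest mean (below 2.86) were left out.

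GIPR is a class B receptor that couples to the stimulatory G protein and raises cyclic AMP, and its hormone is released from the gut after a meal. Brown adipose tissue burns glucose, fatty acids and branched-chain amino acids in mitochondria that Ucp1, uncoupling protein 1, makes produce heat. Obesity is known to bring macrophages, inflammatory mediators and extracellular matrix into adipose depots. In adipose tissue, insulin moves the glucose transporter encoded by Slc2a4 to the cell surface and promotes fat storage. Since whole tissue was sequenced, fewer cells of a type and less RNA per cell cannot be told apart in any result below.

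The values are log2 levels of genes, and every difference is LAGIPRA minus Vehicle on that log2 scale unless stated otherwise, so a value of 1 means a 2-fold level. A gene is called, and is said to have risen or fallen, where its limma p adjusted over all tested genes is under 0.05. The tissue label was checked against its defining markers: Ucp1 lay between 14.70 and 15.68 in all 12 libraries, among the most abundant transcripts. The 17 skeletal muscle markers, which enter with muscle attached to the depot, varied far more between libraries than between groups. Their mean was 1.06 in Vehicle 1, 3.76 in Vehicle 4 and 5.76 in LAGIPRA 4, against 7.30 to 9.52 in the other 9 libraries. No muscle marker was called by limma, and 0 of 17 had an unadjusted p under 0.05, although their median difference was 1.76. Libraries within a group correlated between 0.919 and 0.977 over genes.

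Read depth is unknown, but the most frequent low value above 0 in a library, read as the level that 1 sequence read gives, serves as a proxy: a higher level means fewer reads. This level was 1.04 ± 0.17 in Vehicle and 1.35 ± 0.25 in LAGIPRA (SD, n = 6 each), a difference of 0.31 (two-sided exact permutation test, p = 0.0303, adjusted over 3 library properties 0.0303). It ran from 0.89 to 1.35 in Vehicle, from 1.12 to 1.15 in LAGIPRA 1 to 3, and stood at 1.68, 1.38 and 1.60 in LAGIPRA 4, 5 and 6. Genes listed at the zero level numbered 936 ± 75 in Vehicle and 1092 ± 132 in LAGIPRA (exact permutation p = 0.0303, adjusted 0.0303). The slope of a library's values on log2 transcript length was 0.036 ± 0.014 in Vehicle and 0.007 ± 0.018 in LAGIPRA (exact permutation p = 0.0173, adjusted 0.0303). Leaving out any 1 of LAGIPRA 4, LAGIPRA 5, LAGIPRA 6 or Vehicle 1, 2, 3, 5 and 6 took the adjusted p of the one-read level above 0.05, to between 0.052 and 0.067. With this level added to the limma fit of all genes, 45 genes were called, 25 higher and 20 lower. Because the proxy differs between the groups, depth and treatment cannot be told apart by that fit. Of the 49 gene lists used below, 47 held 0 called members in it, and lipid uptake and endothelial markers held 1 each; list medians from that fit are given beside the larger groups.

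**Figure D1:**
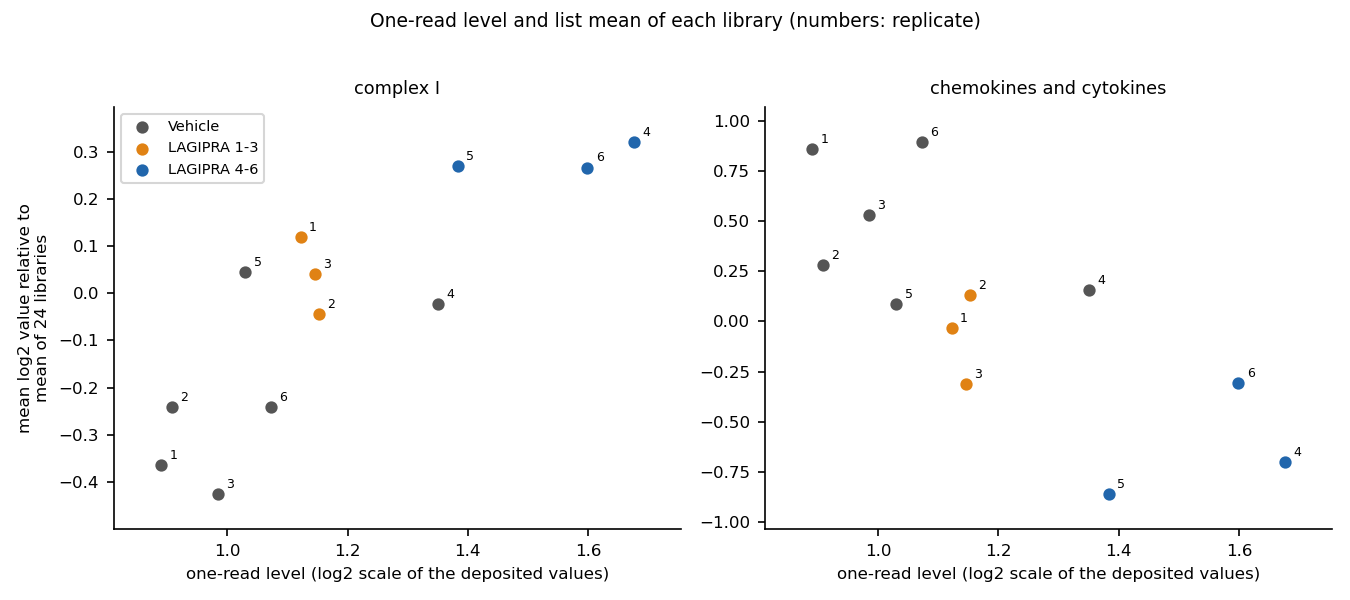
Each point is a library; the x axis is its one-read level (log2 scale of the deposited values), the y axis the mean log2 value of complex I genes (left) or of chemokine and cytokine genes (right) relative to the mean of the 24 libraries of the series, and numbers are replicate numbers. LAGIPRA 4 to 6 combine the highest one-read levels with the highest complex I means (0.27 to 0.32); their chemokine means run from -0.86 to -0.31, and LAGIPRA 3 (-0.31) lies just below LAGIPRA 6.

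Over all 6 libraries, LAGIPRA tissue carried more transcript for mitochondrial respiration and for the breakdown of branched-chain amino acids and fatty acids. It carried less for chemokines, interferon-induced proteins, antigen presentation and matrix. The gene lists behind these statements held 0 called members with the one-read level in the fit, and LAGIPRA 1 to 3 alone gave 0 calls against Vehicle. With limma, 2370 of 17263 genes (13.7%) passed an adjusted p of 0.05, 1502 (8.7%) higher and 868 (5.03%) lower in LAGIPRA. These shares of higher and lower genes are the background for the counts in every list below. Most changes were small: 320 of the higher and 452 of the lower genes differed by at least 1.5-fold, and 72 and 138 by at least 2-fold. The median over all tested genes was 0.03. All 6 LAGIPRA libraries lay above all 6 Vehicle libraries for 545 genes (3.16%) and below them for 257 genes (1.49%).

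Libraries 1 to 3 and 4 to 6 were also each set against Vehicle, in a fit with a mean of their own; these comparisons share the 6 Vehicle libraries, so they are given side by side and not as support for each other. LAGIPRA 1 to 3 minus Vehicle gave 0 calls (0.0%), 2263 genes at an unadjusted p under 0.05, and a smallest adjusted p of 0.0766. LAGIPRA 4 to 6 minus Vehicle gave 2029 higher genes (11.8%) and 1480 lower genes (8.57%). The direct test, LAGIPRA 4 to 6 minus LAGIPRA 1 to 3, gave 0 calls (0.0%), with 1540 genes at an unadjusted p under 0.05. It gave 1 call when no gene was filtered out and 34 when libraries were weighted by their quality.

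Counts of genes without overlap describe the same point. All of LAGIPRA 1 to 3 lay above all Vehicle libraries for 820 genes (4.75%) and below for 440 (2.55%). All of LAGIPRA 4 to 6 did so for 2374 (13.8%) and 1802 genes (10.4%). Set against each other, LAGIPRA 4 to 6 lay above LAGIPRA 1 to 3 for 2361 genes (13.7%) and below for 1945 (11.3%). Smaller groups separate more often by chance. The shares of genes without overlap, here and in the lists below, are therefore not comparable between group sizes.

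**Figure D2:**
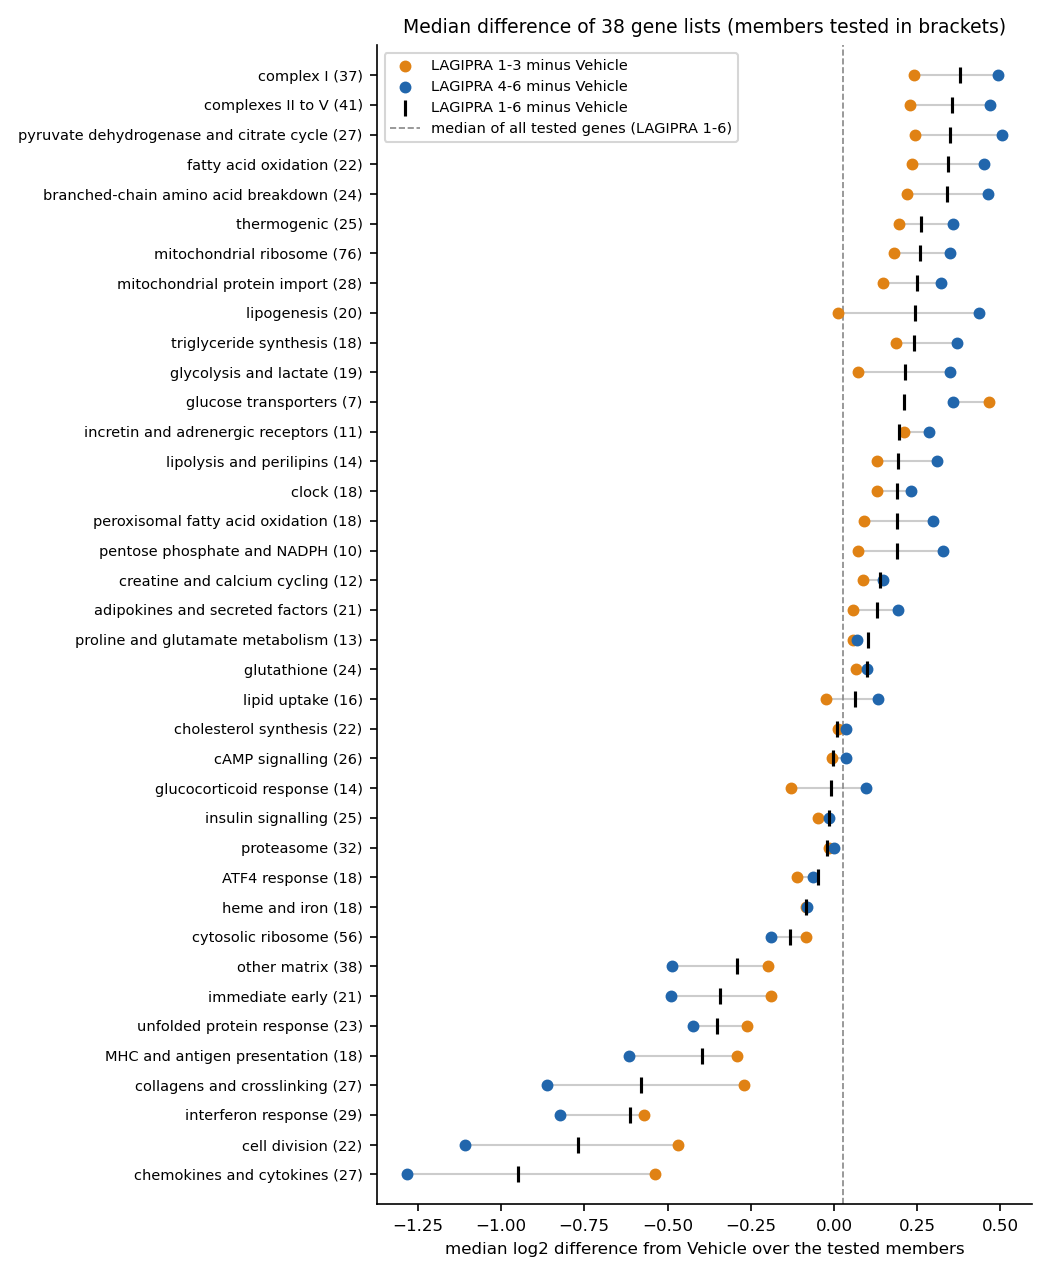
Each row of the plot is 1 of 38 pathway gene lists with its number of tested members in brackets; the x axis is the median log2 difference from Vehicle over those members for LAGIPRA 1 to 3 (orange), 4 to 6 (blue) and all 6 (black bar), and the dashed line is the median of all tested genes (0.03). Medians run from -0.95 for chemokines and cytokines to 0.38 for complex I, and lipogenesis shows a wide gap between the sets (0.01 against 0.44).

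The receptor itself was weakly expressed. Gipr (Entrez 381853) ran from 2.81 to 3.50 (median 2.89) in Vehicle and stood at 2.65, 2.30, 2.13, 2.69, 2.41 and 2.62 in LAGIPRA 1 to 6. All 6 LAGIPRA libraries lay below all 6 Vehicle libraries, but the difference of -0.52 (SE 0.19) missed the threshold, with a limma adjusted p of 0.0637. It passed when no gene was filtered out (0.0497), without the mean-variance trend (0.0323) and with library weights (0.0266). Vehicle 4, at 3.50, stood far above the other Vehicle libraries and so widened the difference. Depth, whose proxy differed between the groups, cannot be told apart from treatment at such levels. Such low levels lie a few reads above zero, so an offset in the scale compresses their differences.

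Of the 18 incretin, other class B and adrenergic receptors listed, 11 were expressed enough to be tested, and 1 rose (9.09%, near the 8.7% of all genes). This was Sctr, the secretin receptor, at 2.98 to 3.80 (median 3.61) in Vehicle and 3.71 to 4.54 (median 4.10) in LAGIPRA, a difference of 0.57 (SE 0.18, limma adjusted p = 0.0373). Its call was lost without any 1 of LAGIPRA 3 to 6 or Vehicle 1, 3 and 6 (adjusted p 0.056 to 0.101). Adrb3, the beta-3 adrenoceptor that drives thermogenesis, differed by 0.34 (SE 0.12, adjusted p = 0.056).

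Downstream, 3 of 26 cyclic AMP signalling genes rose and 2 fell, against 8.7% and 5.03% of all genes. Gnas, the stimulatory G protein alpha subunit, ran from 8.57 to 8.85 (median 8.75) in Vehicle and from 8.95 to 9.43 (median 9.14) in LAGIPRA, a difference of 0.43 (SE 0.09, limma adjusted p = 0.0092). Prkaca, a catalytic subunit of protein kinase A, ran from 8.73 to 9.04 (median 8.88) and from 9.06 to 9.31 (median 9.19), a difference of 0.30 (SE 0.08, adjusted p = 0.0167). For both genes every LAGIPRA library lay above every Vehicle library. Creb1, the transcription factor that the kinase phosphorylates, fell by 0.44 on the log2 scale (SE 0.11, limma adjusted p = 0.0153), from 4.42 to 4.92 (median 4.61) in Vehicle to between 3.80 and 4.35 (median 4.22). The other calls were Adcy7, an adenylyl cyclase, at -0.86 (SE 0.28, adjusted p = 0.046), and Pde8a, a cyclic AMP phosphodiesterase chosen after its values were seen, at 0.30 (SE 0.10, adjusted p = 0.0466). Both lay near the threshold: Adcy7 lost its call without any 1 of LAGIPRA 3 to 6 or Vehicle 1, 2, 3 and 6 (adjusted p 0.0543 to 0.116), and Pde8a without any 1 library except LAGIPRA 3 (0.0516 to 0.103).

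**Figure D3:**
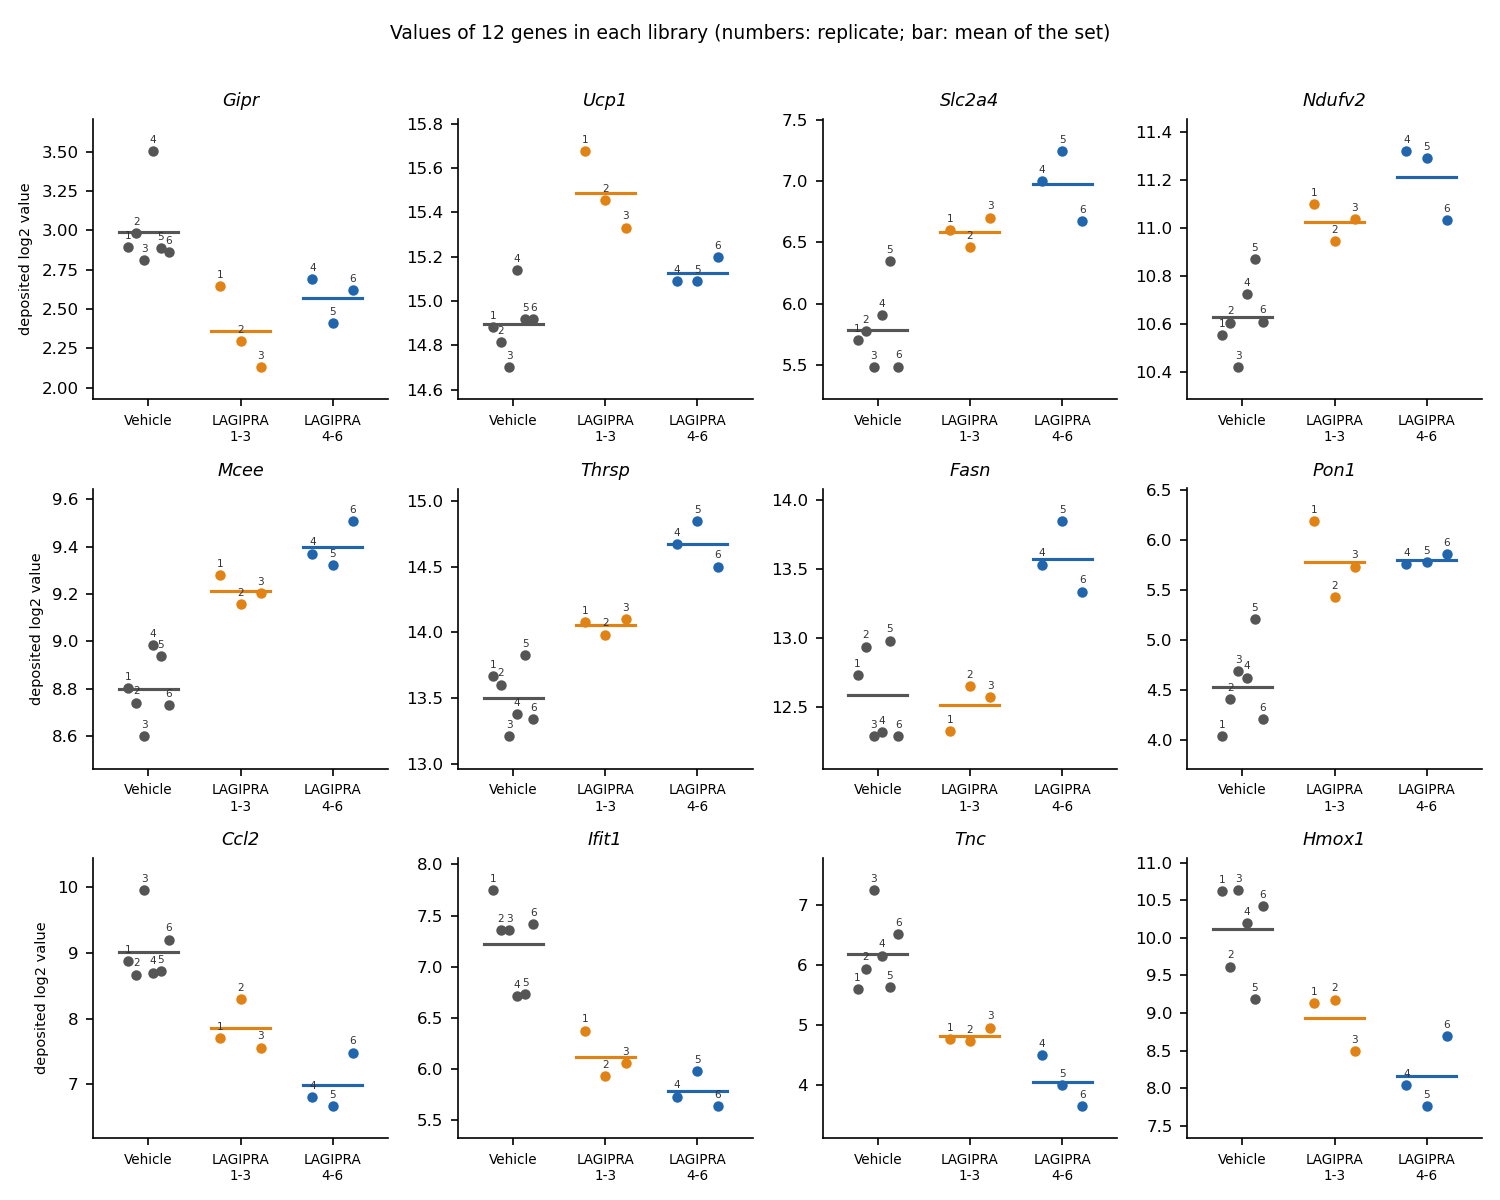
Deposited log2 value (y axis) of 12 genes in each library, by set (x axis: Vehicle, LAGIPRA 1 to 3, LAGIPRA 4 to 6); points are libraries with their replicate numbers and bars are set means. Pon1, Slc2a4 and Mcee lie above all Vehicle libraries in both sets, while Fasn is above Vehicle only in LAGIPRA 4 to 6 and Ucp1 is higher in LAGIPRA 1 to 3 than in 4 to 6.

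Oxidative phosphorylation genes rose as a block. Of the 37 complex I genes, which encode the NADH dehydrogenase and its assembly, 31 rose and 0 fell, and all 37 differences were above 0, from 0.22 to 0.49 (median 0.38). Ndufv2, a core subunit, ran from 10.42 to 10.87 (median 10.61) in Vehicle and from 10.94 to 11.32 (median 11.07) in LAGIPRA, a difference of 0.49 (SE 0.09, limma adjusted p = 0.00514). Ndufb5, an accessory subunit, ran from 9.07 to 9.67 (median 9.28) and from 9.51 to 9.99 (median 9.84), a difference of 0.49 (SE 0.10, adjusted p = 0.00606). Ndufc2, another accessory subunit, ran from 10.81 to 11.38 (median 11.06) and from 11.43 to 11.69 (median 11.54), a difference of 0.47 (SE 0.09, adjusted p = 0.00682). Ndufv2 and Ndufc2 showed no overlap between the groups, whereas LAGIPRA 2 for Ndufb5 lay inside the Vehicle range.

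Of the 41 genes of complexes II to V and cytochrome c, 29 rose and 0 fell, with a median of 0.36. Sdhd, a membrane anchor of succinate dehydrogenase, ran from 11.001 to 11.42 (median 11.19) in Vehicle and from 11.44 to 11.81 (median 11.68) in LAGIPRA, a difference of 0.43 (SE 0.09, limma adjusted p = 0.00726). Cox5a, a subunit of cytochrome c oxidase, rose by 0.43 (SE 0.10, adjusted p = 0.00958), from a median of 10.92 to 11.43. Atp5h and Atp5o, subunits of the peripheral stalk of ATP synthase, rose by 0.41 (SE 0.08, adjusted p = 0.00514) and 0.39 (SE 0.08, adjusted p = 0.00904). These 2 ATP synthase genes overlapped between the groups. For Atp5h the Vehicle maximum (8.30) just reached the LAGIPRA minimum (8.30). For Atp5o Vehicle 5 (9.99) lay above all of LAGIPRA 1 to 3 (9.93 to 9.96).

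In list medians LAGIPRA 1 to 3 stood between Vehicle and LAGIPRA 4 to 6, but single libraries overlapped Vehicle. LAGIPRA 1 to 3 lay above all Vehicle libraries for 7 of 37 complex I genes and 5 of 41 genes of complexes II to V. The complex I median was 0.24 in LAGIPRA 1 to 3 and 0.49 in LAGIPRA 4 to 6, and in the direct comparison of the sets it was 0.25. For 36 of 37 complex I genes LAGIPRA 4 to 6 lay above all Vehicle libraries, and for 27 they lay above LAGIPRA 1 to 3. For complexes II to V the set medians were 0.23 and 0.47, with 33 of 41 genes of LAGIPRA 4 to 6 above all Vehicle libraries and 25 above LAGIPRA 1 to 3. Vehicle 5 was the control library nearest to LAGIPRA: its complex I mean relative to the series was 0.04, against -0.04 to 0.12 in LAGIPRA 1 to 3. With the one-read level in the fit, the medians were 0.21 and 0.19 and 0 members were called. Leaving out LAGIPRA 5 left 14 complex I calls, and leaving out LAGIPRA 4 left 11 calls in complexes II to V. Without the 3 libraries poorest in muscle (Vehicle 1, Vehicle 4 and LAGIPRA 4) 2 and 3 members were called, at medians of 0.34 and 0.33.

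Promoters of these genes were searched on both strands for the NRF1 motif, written here as GCGCATGCG, and the ERR motif, TCAAGGTCA, since these factors are known regulators of respiratory genes. The windows, from RefSeq on GRCm38.p6, run from 250 bases before to 50 after the transcription start. The NRF1 letters were in 7 of 33 promoters of complexes II to V (21.2%), in 2 of 33 of complex I (6.06%) and in 527 of all 27025 (1.95%). Of the 7, 5 were of called genes, where 29 of all 41 listed genes (70.7%) were called. The ERR letters were in 2 of 33 (6.06%), 0 of 33 and 126 of 27025 (0.466%). Among pyruvate dehydrogenase and citrate cycle genes, described below, the NRF1 letters were in 1 of 24 promoters (4.17%), of an uncalled gene. The ERR letters were in 0 of these 24. 3 called genes with the NRF1 letters are shown as examples of this sequence in its context, 5′ to 3′ on the gene's strand, with the match in capitals; the motif is nearly its own reverse complement, and overlapping matches merge.
Atp5g2, chr15:102671055-102671114, minus strand, 67 to 8 bases before the start: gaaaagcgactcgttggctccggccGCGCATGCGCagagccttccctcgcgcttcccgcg
Atp5l, chr9:44920950-44920992, minus strand, 250 to 208 bases before the start: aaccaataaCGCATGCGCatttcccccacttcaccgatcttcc
Cycs, chr6:50566597-50566655, minus strand, 86 to 28 bases before the start: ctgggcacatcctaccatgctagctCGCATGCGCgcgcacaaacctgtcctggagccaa
Atp5g2, a subunit of the ATP synthase ring, rose by 0.40 (SE 0.09, limma adjusted p = 0.0107), from 6.70 to 7.40 (median 6.999) in Vehicle to 7.32 to 7.59 (median 7.41). Atp5l, an ATP synthase subunit, rose by 0.40 (SE 0.10, adjusted p = 0.0163), from a median of 10.05 to 10.58. Cycs, cytochrome c, rose by 0.38 (SE 0.10, adjusted p = 0.0171), from a median of 11.56 to 12.01. A match is a description of letters and not a site of binding.

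Genes that build mitochondria moved with the respiratory chain. Of 76 mitochondrial ribosome genes 50 rose and 0 fell, with a median of 0.26, and 74 differences were above 0. Mrps9, of the small subunit, ran from 6.81 to 7.02 (median 6.90) in Vehicle and stood at 7.12, 7.15, 7.17, 7.40, 7.36 and 7.40 in LAGIPRA 1 to 6, a difference of 0.37 (SE 0.07, limma adjusted p = 0.00514). All LAGIPRA libraries lay above Vehicle, and libraries 4 to 6 lay above 1 to 3. Mrps18a rose by 0.40 (SE 0.08, adjusted p = 0.00514) and Mrpl49, of the large subunit, by 0.30 (SE 0.06, adjusted p = 0.00681).

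Of 28 genes for mitochondrial protein import 13 rose and 0 fell, with a median of 0.25. Timm50, a receptor of the inner membrane translocase, ran from 7.51 to 7.86 (median 7.65) in Vehicle and from 7.85 to 8.25 (median 8.13) in LAGIPRA, a difference of 0.42 (SE 0.08, limma adjusted p = 0.00514). Timm9, a chaperone of the space between the membranes, rose by 0.45 (SE 0.09, adjusted p = 0.00527) and Timm17a, a channel component, by 0.30 (SE 0.07, adjusted p = 0.0121). The ribosome and import medians were 0.18 and 0.15 in LAGIPRA 1 to 3, and 0.35 and 0.32 in LAGIPRA 4 to 6. With the one-read level in the fit they were 0.16 and 0.11, with 0 calls. Without Vehicle 3 the ribosome calls fell to 27, and without LAGIPRA 4 the import calls fell to 4.

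Cytosolic protein machinery gave few calls. Of 56 cytosolic ribosome genes 0 rose and 3 fell, a share of 5.36% that is close to the 5.03% of all genes, and the median was -0.13. Rps3, a small-subunit protein, ran from 10.05 to 10.29 (median 10.12) in Vehicle and from 9.86 to 10.04 (median 9.89) in LAGIPRA, a difference of -0.22 (SE 0.07, limma adjusted p = 0.0305). Rps12 and Rps20, also of the small subunit, differed by -0.30 (SE 0.09, adjusted p = 0.0354) and -0.23 (SE 0.07, adjusted p = 0.0364). Rps3 lost its call without any 1 of LAGIPRA 4, 5 and 6, Vehicle 3 and Vehicle 6 (adjusted p 0.061 to 0.0832). Rps12 lost it also without LAGIPRA 3 or Vehicle 1 (0.0564 to 0.0984 over these 7), and Rps20 without these or Vehicle 2 (0.0528 to 0.09). Ribosomal protein genes have many processed copies in the genome, so their values are uncertain to the extent that reads were shared. The number of lower calls was 0 without LAGIPRA 4 and 12 without Vehicle 5. In LAGIPRA 4 to 6, 20 of the 56 lay below all Vehicle libraries and 13 were called lower. Of 32 proteasome genes 0 were called by limma, with 2 above and 2 below at an unadjusted p under 0.05, and the median was -0.02.

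Enzymes that break down branched-chain amino acids, a fuel brown fat is known to take up, rose. Of 24 genes 17 rose and 0 fell, all 24 differences were above 0, and the median was 0.34. Mcee, methylmalonyl-CoA epimerase, ran from 8.60 to 8.98 (median 8.77) in Vehicle and stood at 9.28, 9.16, 9.20, 9.37, 9.32 and 9.51 in LAGIPRA 1 to 6. Every LAGIPRA library lay above every Vehicle library, and the difference was 0.51 (SE 0.09, limma adjusted p = 0.00455). Acad8, isobutyryl-CoA dehydrogenase of valine breakdown, ran from 6.51 to 6.79 (median 6.60) and from 6.82 to 7.28 (median 7.14), a difference of 0.47 (SE 0.10, adjusted p = 0.00682). Mccc2, a subunit of methylcrotonyl-CoA carboxylase of leucine breakdown, rose by 0.41 (SE 0.09, adjusted p = 0.0113). Bcat2, the mitochondrial transaminase that starts the pathway, rose by 0.31 (SE 0.07, adjusted p = 0.0117).

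The median of this list was 0.22 in LAGIPRA 1 to 3 and 0.46 in LAGIPRA 4 to 6. All of LAGIPRA 1 to 3 lay above Vehicle for 11 of the 24 genes, all of LAGIPRA 4 to 6 for 23, and the second set lay above the first for 19. With the one-read level in the fit the median was 0.17 with 0 calls, and leaving out LAGIPRA 4 left 7 calls.

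Proline and glutamate enzymes did not move as a block, with 3 of 13 higher (23.1%) and 1 lower (7.69%), beside 8.7% and 5.03% of all genes. Prodh, proline dehydrogenase, which oxidises proline in mitochondria, ran from 2.26 to 2.93 (median 2.82) in Vehicle and stood at 3.58, 3.30, 3.33, 3.73, 3.99 and 4.08 in LAGIPRA 1 to 6. All 6 LAGIPRA libraries lay above Vehicle, and the difference was 0.98 (SE 0.18, limma adjusted p = 0.00514). Aldh4a1, the next enzyme of proline oxidation, rose by 0.48 (SE 0.13, adjusted p = 0.0186), from a median of 7.31 to 7.78. Aldh18a1, the enzyme that starts proline synthesis, fell from 4.0004 to 4.69 (median 4.29) in Vehicle to 3.44 to 4.03 (median 3.65), a difference of -0.63 (SE 0.17, adjusted p = 0.0207). The call of Aldh4a1 was lost without LAGIPRA 5 (adjusted p = 0.0542) or Vehicle 3 (0.0515), and that of Aldh18a1 without LAGIPRA 5 (0.0572), Vehicle 3 (0.0607) or Vehicle 6 (0.0509).

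Of 27 pyruvate dehydrogenase and citrate cycle genes 17 rose and 0 fell, with a median of 0.35. Pdhx, the component that binds the E3 subunit of pyruvate dehydrogenase, ran from 6.45 to 6.85 (median 6.74) in Vehicle and from 6.996 to 7.47 (median 7.18) in LAGIPRA, a difference of 0.51 (SE 0.10, limma adjusted p = 0.00682). Dlst, of the 2-oxoglutarate dehydrogenase complex, rose by 0.45 (SE 0.11, adjusted p = 0.0123), from a median of 9.38 to 9.88. Sucla2, a subunit of succinyl-CoA synthetase, rose by 0.43 (SE 0.10, adjusted p = 0.0126), from a median of 10.76 to 11.14. For all 3 genes no LAGIPRA library reached down to the Vehicle range, and libraries 4 to 6 lay above 1 to 3, as they did for 24 of the 27 genes. The list's median was 0.24 in the first set and 0.51 in the second, 0.18 with 0 calls with the one-read level in the fit, and without LAGIPRA 4 there were 8 calls.

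Of 22 mitochondrial fatty acid oxidation genes 15 rose and 1 fell, with a median of 0.34. Etfb, a subunit of the flavoprotein that carries electrons from the dehydrogenases, ran from 12.02 to 12.52 (median 12.18) in Vehicle and from 12.38 to 12.91 (median 12.65) in LAGIPRA, a difference of 0.46 (SE 0.11, limma adjusted p = 0.0128). Acadl, long-chain acyl-CoA dehydrogenase, rose by 0.37 (SE 0.09, adjusted p = 0.0161) with no overlap between the groups. Against the rest, Cpt1a, the liver-type carnitine palmitoyltransferase of the outer membrane, fell from 6.14 to 6.78 (median 6.64) in Vehicle to 5.71 to 6.27 (median 5.98), a difference of -0.61 (SE 0.15, adjusted p = 0.0134). The list's medians were 0.23 and 0.45 in the 2 sets and 0.15 with 0 calls with the one-read level in the fit, and 3 calls were left without LAGIPRA 5. Of 18 peroxisomal fatty acid oxidation genes 3 rose (16.7%, beside 8.7% of all genes), and 0 without LAGIPRA 4. Crot, the peroxisomal carnitine octanoyltransferase, was among them at 0.32 (SE 0.09, adjusted p = 0.0218), a call lost without LAGIPRA 4 (0.0657), LAGIPRA 5 (0.0617) or Vehicle 6 (0.0514).

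**Figure D4:**
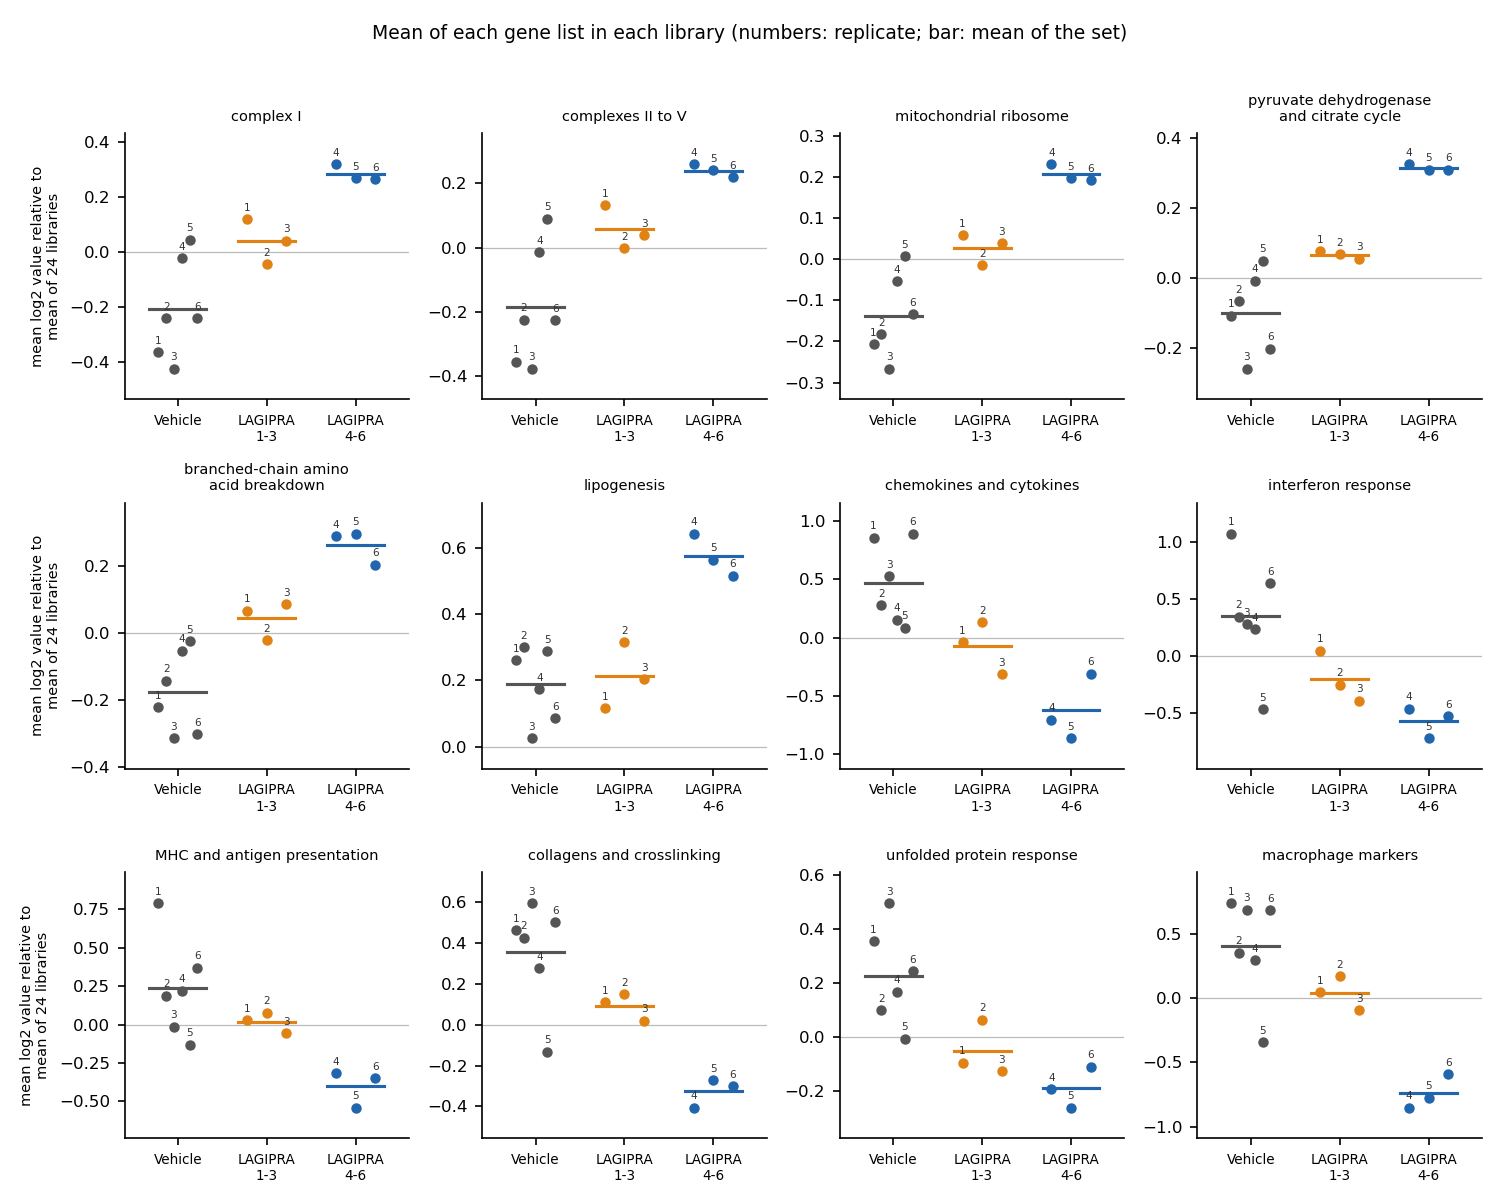
Mean log2 value of 12 gene lists in each library, relative to the mean of the 24 libraries of the series (y axis), by set (x axis); points are libraries with replicate numbers and bars are set means. In complex I, complexes II to V, the mitochondrial ribosome, the citrate cycle and branched-chain amino acid breakdown LAGIPRA 4 to 6 lie above every Vehicle library; Vehicle 5 is the highest Vehicle library in these panels and the lowest in those of chemokines, interferon response, antigen presentation, collagens, unfolded protein response and macrophage markers.

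Glucose transporter genes moved in opposite directions. Slc2a4, the insulin-responsive glucose transporter GLUT4, ran from 5.48 to 6.34 (median 5.74) in Vehicle and stood at 6.60, 6.46, 6.70, 6.9998, 7.24 and 6.67 in LAGIPRA 1 to 6. All 6 LAGIPRA libraries lay above all 6 Vehicle libraries, and the difference was 0.996 (SE 0.17, limma adjusted p = 0.00376), 0.80 for libraries 1 to 3 and 1.19 for 4 to 6. In the fit that includes the one-read level, it was 0.84, with an adjusted p of 0.0636. Slc2a12, a further glucose transporter at a low level, rose by 1.09 (SE 0.27, adjusted p = 0.0146), from 1.85 to 2.78 (median 2.08) to between 2.98 and 3.69 (median 3.35). Slc2a1, the basal transporter GLUT1, fell from 5.40 to 5.91 (median 5.60) to 4.86 to 5.48 (median 5.10), a difference of -0.51 (SE 0.13, adjusted p = 0.0163). These were the 3 calls among 7 glucose transporters tested of 10 listed, 28.6% higher and 14.3% lower beside 8.7% and 5.03% of all genes.

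Of 19 glycolysis and lactate genes 3 rose and 1 fell, with a median of 0.21. These are 15.8% and 5.26%, beside 8.7% and 5.03% of all genes. Pfkfb1, which makes and breaks down the glycolytic activator fructose 2,6-bisphosphate, ran from 4.32 to 5.04 (median 4.62) in Vehicle and from 5.15 to 5.60 (median 5.41) in LAGIPRA, a difference of 0.70 (SE 0.13, limma adjusted p = 0.00514). Ldhb, a lactate dehydrogenase subunit, rose by 0.53 (SE 0.13, adjusted p = 0.0126), and Pgk1, phosphoglycerate kinase, by 0.27 (SE 0.09, adjusted p = 0.0409). Slc16a3, a lactate exporter, fell by 0.93 on the log2 scale (SE 0.29, adjusted p = 0.036), from a median of 4.28 to 3.40. Glycolysis genes have pseudogene copies, so reads may be shared. Slc16a3 lost its call without any 1 of LAGIPRA 3 to 6 or Vehicle 1, 3 and 6 (adjusted p 0.0556 to 0.0942), and Pgk1 without LAGIPRA 4 to 6 or Vehicle 1, 2, 3 and 6 (0.0705 to 0.102). Of 10 genes of the pentose phosphate pathway and NADPH supply 0 were called by limma and 6 were higher at an unadjusted p under 0.05, with medians of 0.07 and 0.33 in the first and second set.

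In fat synthesis the 2 sets of libraries stood far apart. Of 20 lipogenesis genes 4 rose and 0 fell, and the list's median was 0.24, made of 0.01 in LAGIPRA 1 to 3 and 0.44 in LAGIPRA 4 to 6; in the direct comparison of the sets it was 0.39. Fasn, fatty acid synthase, ran from 12.29 to 12.98 (median 12.52) in Vehicle and stood at 12.33, 12.65, 12.57, 13.53, 13.85 and 13.34 in LAGIPRA 1 to 6. Libraries 1 to 3 lay within the Vehicle range and 4 to 6 above it. The difference was 0.45 (SE 0.37, limma adjusted p = 0.414) over all 6 libraries, -0.07 for the first set and 0.98 for the second. Fitted together with the one-read level, the list's median was -0.08 with 0 calls.

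The 4 lipogenic genes that rose were regulators. Thrsp, an insulin- and carbohydrate-induced protein of fat synthesis, ran from 13.21 to 13.82 (median 13.49) in Vehicle and stood at 14.08, 13.98, 14.10, 14.67, 14.85 and 14.50 in LAGIPRA 1 to 6, a difference of 0.86 (SE 0.21, limma adjusted p = 0.0148). Mlxipl, the carbohydrate-response factor ChREBP, ran from 6.29 to 6.89 (median 6.57) and from 6.85 to 7.66 (median 7.32), a difference of 0.77 (SE 0.15, adjusted p = 0.00526). Srebf1, the insulin-responsive factor SREBP1, rose by 0.42 (SE 0.09, adjusted p = 0.00787), and Nr1h3, the oxysterol receptor LXR alpha, by 0.20 (SE 0.05, adjusted p = 0.0161). For Thrsp, Srebf1 and Nr1h3 all LAGIPRA libraries lay above all Vehicle libraries. Of 22 cholesterol synthesis genes tested of 23 listed, 0 were called by limma, with 2 above and 1 below at an unadjusted p under 0.05, and the median was 0.01.

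Triglyceride synthesis gave 5 higher (27.8%) and 0 lower of 18 genes, beside 8.7% and 5.03% of all genes. Gpd1, which makes the glycerol 3-phosphate backbone, ran from 12.98 to 13.56 (median 13.35) in Vehicle and from 13.69 to 14.31 (median 14.00) in LAGIPRA, a difference of 0.72 (SE 0.17, limma adjusted p = 0.0117). Dgat2 and Dgat1, which add the last acyl chain, rose by 0.53 (SE 0.13, adjusted p = 0.0158) and 0.41 (SE 0.09, adjusted p = 0.0109). Agpat1, an acyltransferase of the second step, rose by 0.34 (SE 0.07, adjusted p = 0.00787), and its relative Agpat2, chosen after its values were seen, by 0.46 (SE 0.12, adjusted p = 0.0197). For all 5 genes the LAGIPRA libraries lay above every Vehicle library. The Agpat2 call was lost without LAGIPRA 5 (0.052) or Vehicle 3 (0.059). The list's median was 0.24, and 0.08 with 0 calls with the one-read level in the fit; without Vehicle 5 there were 8 calls.

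Lipolysis and lipid droplet genes gave 4 higher (28.6%) and 0 lower of 14, beside 8.7% and 5.03% of all genes. G0s2, an inhibitor of the triglyceride lipase Pnpla2, ran from 11.94 to 12.86 (median 12.22) in Vehicle and from 12.77 to 13.26 (median 13.03) in LAGIPRA, a difference of 0.76 (SE 0.16, limma adjusted p = 0.00758). Pnpla2 itself rose by 0.44 (SE 0.12, adjusted p = 0.02), from a median of 10.996 to 11.39. Cidea and Cideb, lipid droplet proteins, rose by 0.43 (SE 0.11, adjusted p = 0.0174) and 0.81 (SE 0.21, adjusted p = 0.0161). Pnpla2 lost its call without LAGIPRA 4 (0.0594), LAGIPRA 5 (0.0564), Vehicle 3 (0.0526) or Vehicle 6 (0.0526), and Cidea without Vehicle 3 (0.0519).

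Among 16 lipid uptake genes 2 rose and 2 fell, 12.5% each beside 8.7% and 5.03% of all genes. Lmf1, which matures lipoprotein lipase, ran from 6.20 to 6.60 (median 6.36) in Vehicle and stood at 6.76, 6.64, 6.92, 6.96, 6.88 and 6.97 in LAGIPRA 1 to 6. All lay above Vehicle, and the difference was 0.49 (SE 0.08, limma adjusted p = 0.00376); it is 1 of 4 named genes still called with the one-read level in the fit (0.45, adjusted p = 0.0488). Angptl8, a fed-state protein that acts on lipoprotein lipase, rose by 0.46 (SE 0.15, adjusted p = 0.0426). Fabp5, a fatty acid binding protein also made by macrophages, fell from 9.06 to 9.60 (median 9.44) to 8.62 to 9.03 (median 8.79), a difference of -0.58 (SE 0.17, adjusted p = 0.0308), and Lrp1, a lipoprotein receptor, fell by 0.55 (SE 0.14, adjusted p = 0.0177). These calls depended on single libraries: Lrp1 lost it without LAGIPRA 5 (0.052) or Vehicle 3 (0.0512). Fabp5 lost it without any 1 of LAGIPRA 3 to 6 or Vehicle 1, 3 and 6 (0.0508 to 0.0719), and Angptl8 without any 1 of these or Vehicle 4 (0.0565 to 0.107).

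Among thermogenic genes 7 of 25 rose (28%) and 1 fell (4%), beside 8.7% and 5.03% of all genes, with a median of 0.26. Without Vehicle 3 there were 2 higher calls, and with the one-read level in the fit 0, at a median of 0.07. Ucp1 ran from 14.70 to 15.14 (median 14.90) in Vehicle and stood at 15.68, 15.46, 15.33, 15.09, 15.09 and 15.20 in LAGIPRA 1 to 6, a difference of 0.41 (SE 0.12, limma adjusted p = 0.0274). Its order was the reverse of the respiratory genes: all of LAGIPRA 1 to 3 lay above Vehicle and above LAGIPRA 4 to 6, with differences from Vehicle of 0.59 and 0.23. The call was lost without LAGIPRA 1 (0.0545), Vehicle 1 (0.0544), Vehicle 2 (0.0516), Vehicle 3 (0.0715) or Vehicle 6 (0.0514). At this level quantile normalization gives several libraries the same value, which limits how finely they can be ranked.

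Other thermogenic calls were regulators and subunits. Esrra, the nuclear receptor ERR alpha that drives mitochondrial genes, ran from 8.39 to 8.82 (median 8.57) in Vehicle and from 8.82 to 9.13 (median 9.02) in LAGIPRA, a difference of 0.39 (SE 0.09, limma adjusted p = 0.01). Tfam, which packages mitochondrial DNA, rose by 0.31 (SE 0.08, adjusted p = 0.0183) with no overlap between groups, a call lost without LAGIPRA 5 (0.0525). Cox7a1, a cytochrome oxidase subunit of heart, muscle and brown fat, rose by 0.48 (SE 0.13, adjusted p = 0.0208), lost without LAGIPRA 4 (0.0556), Vehicle 1 (0.0543) or Vehicle 3 (0.0613). The fall was in Ucp2, chosen after its values were seen, an uncoupling protein relative that macrophages also express: -0.71 (SE 0.21, adjusted p = 0.0296), from a median of 9.55 to 8.83. It lost its call without any 1 of LAGIPRA 4 to 6 or Vehicle 1, 3 and 6 (0.0598 to 0.0815). Ppargc1a, the coactivator induced by cold, differed by -0.07 (SE 0.30, adjusted p = 0.901) and Dio2, which activates thyroid hormone, by 0.61 (SE 0.38, adjusted p = 0.277).

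Of 15 brown adipocyte markers 4 rose (26.7%, beside 8.7% of all genes) and 0 fell, at a median of 0.25. Their summed levels were 16.66 to 17.16 in Vehicle, 17.30 to 17.38 in LAGIPRA 1 to 3 and 17.17 to 17.28 in LAGIPRA 4 to 6 on the log2 scale. Cox8b and Ucp1 are a large part of this sum, so these ranges largely repeat their differences. The mean over the markers, relative to the series, overlapped between the groups. It ran from -0.35 to 0.09 in Vehicle, -0.02 to 0.14 in LAGIPRA 1 to 3 and 0.08 to 0.19 in LAGIPRA 4 to 6. The 4 calls became 0 without Vehicle 3 and 0 with the one-read level in the fit, where the median was 0.07. Of 10 white adipocyte markers 4 were expressed enough to test and 0 were called by limma, with 1 lower at an unadjusted p under 0.05; Hoxc10 averaged 0.00 in Vehicle and 0.47 in LAGIPRA. Of 12 genes of creatine and calcium cycling 0 were called by limma, with 1 above and 1 below at an unadjusted p under 0.05. The 2 largest differences there were of muscle genes, Sln at 2.29 (SE 1.31) and Atp2a1 at 2.18 (SE 1.88), which vary with the muscle content of single libraries.

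Insulin signalling genes were called 3 of 25 higher and 3 lower, 12% each beside 8.7% and 5.03% of all genes, and the list's median was -0.01. The lower calls numbered 0 without LAGIPRA 4, and with the one-read level in the fit 0 were called in either direction. Akt2, the kinase through which insulin moves GLUT4, ran from 7.57 to 7.93 (median 7.74) in Vehicle and from 8.004 to 8.23 (median 8.10) in LAGIPRA, a difference of 0.34 (SE 0.08, limma adjusted p = 0.0142). Gsk3a, a glycogen synthase kinase, ran from 7.15 to 7.35 (median 7.28) and from 7.47 to 7.55 (median 7.50), a difference of 0.23 (SE 0.05, adjusted p = 0.00787). Grb14, an adaptor that inhibits the insulin receptor, rose by 0.42 (SE 0.11, adjusted p = 0.0167). For all 3 genes the groups did not overlap. Ptpn1, a phosphatase that switches off the insulin receptor, fell from 6.56 to 7.14 (median 6.83) to 6.25 to 6.60 (median 6.39), a difference of -0.43 (SE 0.13, adjusted p = 0.0305). Gsk3b and Tbc1d1, chosen after their values were seen, differed by -0.36 (SE 0.12, adjusted p = 0.0406) and -0.43 (SE 0.14, adjusted p = 0.0459). Ptpn1 lost its call without any 1 of LAGIPRA 4 to 6 or Vehicle 1, 3 and 6 (0.0619 to 0.08), and Gsk3b and Tbc1d1 without any 1 library but LAGIPRA 2 and Vehicle 5 (0.0551 to 0.12). The insulin receptor, Insr, differed by -0.24 (SE 0.31, adjusted p = 0.634).

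Among 21 secreted factors 3 rose and 1 fell, 14.3% and 4.76% beside 8.7% and 5.03% of all genes. Ptgds, prostaglandin D synthase, ran from 5.14 to 5.55 (median 5.29) in Vehicle and from 5.70 to 6.85 (median 6.13) in LAGIPRA, a difference of 0.84 (SE 0.18, limma adjusted p = 0.00783). Nrg4, a growth factor secreted by brown fat, ran from 6.91 to 7.44 (median 7.33) and from 7.49 to 8.09 (median 7.63), a difference of 0.43 (SE 0.10, adjusted p = 0.0112). Vegfb, a vascular growth factor of oxidative tissues, rose by 0.48 (SE 0.12, adjusted p = 0.0166). Lcn2, lipocalin 2, an inflammation-induced iron-sequestering protein, ran from 6.39 to 7.004 (median 6.69) in Vehicle and stood at 4.83, 6.19, 5.41, 5.44, 4.98 and 5.26 in LAGIPRA 1 to 6. Every LAGIPRA library was lower, and the difference was -1.34 (SE 0.28, adjusted p = 0.00726). Leptin, Lep, differed by -0.24 (SE 0.21, adjusted p = 0.457) and adiponectin, Adipoq, by 0.22 (SE 0.09, adjusted p = 0.101).

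Of 18 clock genes 2 rose (11.1%, near the 8.7% of all genes) and 0 fell, with a median of 0.19. Calls in this list numbered 0 without LAGIPRA 5 and 0 with the one-read level in the fit. Tef, a transcription factor with daily rhythm, ran from 5.55 to 5.89 (median 5.69) in Vehicle and from 5.78 to 6.41 (median 6.03) in LAGIPRA, so that the groups overlapped, and rose by 0.36 (SE 0.11, limma adjusted p = 0.032). Its call was lost without any 1 of LAGIPRA 3, 5 and 6 or Vehicle 1, 2, 3 and 6 (0.0553 to 0.0919). Of 14 glucocorticoid-responsive genes 3 fell (21.4%, beside 5.03% of all genes) and 0 rose. The 3 were Lcn2 and the metallothioneins Mt1 and Mt2, which bind zinc and respond to several stresses. Mt2 fell by 1.06 on the log2 scale (SE 0.21, limma adjusted p = 0.00672), from 10.93 to 12.30 (median 11.60) in Vehicle to 9.97 to 11.11 (median 10.64), and Mt1 by 0.50 (SE 0.12, adjusted p = 0.0134). The median of the 14 genes was -0.01.

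Immediate early genes, which stimuli induce within minutes, were mostly lower: 6 of 21 fell and 1 rose, with a median of -0.34. Myc, a growth regulator, ran from 5.84 to 6.96 (median 6.60) in Vehicle and from 5.48 to 6.01 (median 5.54) in LAGIPRA, a difference of -0.88 (SE 0.17, limma adjusted p = 0.00514). Junb, a subunit of AP-1, ran from 11.08 to 11.76 (median 11.44) and from 10.08 to 11.10 (median 10.53), a difference of -0.88 (SE 0.17, adjusted p = 0.00592). Zfp36, which destabilises inflammatory messenger RNAs, fell by 0.67 (SE 0.15, adjusted p = 0.00924). Egr1 stood at 9.10, 8.54, 8.32, 7.999, 7.30 and 7.64 in LAGIPRA 1 to 6 against 8.63 to 10.29 (median 9.41) in Vehicle, a difference of -1.19 (SE 0.32, adjusted p = 0.0208) that lost its call without LAGIPRA 4 (0.0506), LAGIPRA 5 (0.0624) or LAGIPRA 6 (0.0503). The gene that rose, Nr4a2, a nuclear receptor that cyclic AMP induces, was chosen after its values were seen: it ran from 3.49 to 4.10 in Vehicle and from 4.12 to 4.54 in LAGIPRA, a difference of 0.47 (SE 0.14, adjusted p = 0.0274). Nr4a2 lost its call without LAGIPRA 4 or 5 or Vehicle 1, 3 or 6 (0.0546 to 0.0741). The lower calls numbered 3 without LAGIPRA 4, and with the one-read level in the fit the list's median was -0.22 with 0 calls.

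Genes of the unfolded protein response, chaperones and enzymes of the endoplasmic reticulum, fell in 13 of 23 cases and rose in 0, with a median of -0.35. P4hb, protein disulfide isomerase, ran from 8.29 to 9.21 (median 8.81) in Vehicle and from 7.90 to 8.44 (median 8.13) in LAGIPRA, a difference of -0.63 (SE 0.16, limma adjusted p = 0.0161). Sdf2l1, an endoplasmic reticulum stress protein, fell by 0.85 (SE 0.22, adjusted p = 0.0184), a call lost without LAGIPRA 5 (0.056) or Vehicle 3 (0.0524). The list rested on few libraries, with 1 call left without LAGIPRA 5 and 16 without Vehicle 5. Its medians were -0.26 and -0.42 in the 2 sets, and -0.30 with 0 calls with the one-read level in the fit.

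Of 18 genes of the ATF4 response, a stress program of amino acid supply, 3 fell (16.7%) and 2 rose (11.1%). Over all genes 5.03% fell and 8.7% rose. Psat1, of serine synthesis, ran from 6.05 to 6.51 (median 6.27) in Vehicle and from 5.15 to 6.02 (median 5.55) in LAGIPRA, a difference of -0.72 (SE 0.13, limma adjusted p = 0.00514). Slc7a5, a carrier of large neutral amino acids, fell by 1.03 (SE 0.22, adjusted p = 0.00787), and Mthfd2, a mitochondrial folate enzyme chosen after its values were seen, by 0.55 (SE 0.16, adjusted p = 0.026). Asns, asparagine synthetase, rose instead, from 7.15 to 7.35 (median 7.26) to between 7.53 and 7.79 (median 7.58), a difference of 0.36 (SE 0.08, adjusted p = 0.00835). Psph, the last enzyme of serine synthesis, rose by 0.42 (SE 0.12, adjusted p = 0.0228). Psat1, Slc7a5 and Asns showed no overlap between groups. Mthfd2 lost its call without LAGIPRA 4 or 5 or Vehicle 1, 3, 4 or 6 (0.0522 to 0.0702), and Psph without LAGIPRA 4 or 5 or Vehicle 1 or 3 (0.0541 to 0.0686).

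Heme and iron genes gave 2 higher and 2 lower of 18, 11.1% each beside 8.7% and 5.03% of all genes. Hmox1, heme oxygenase, which breaks heme down and is high in macrophages, ran from 9.18 to 10.63 (median 10.31) in Vehicle and stood at 9.13, 9.18, 8.49, 8.04, 7.76 and 8.69 in LAGIPRA 1 to 6, a difference of -1.57 (SE 0.34, limma adjusted p = 0.00891). All LAGIPRA libraries lay below all Vehicle libraries, LAGIPRA 2 by a margin lost in rounding. Ftl1, ferritin light chain, whose gene has many pseudogenes, fell by 0.72 (SE 0.21, adjusted p = 0.0266). On the synthesis side Alad rose by 0.48 (SE 0.11, adjusted p = 0.0114) and Fech, ferrochelatase, by 0.26 (SE 0.07, adjusted p = 0.0268). Ftl1 lost its call without LAGIPRA 4 to 6 or Vehicle 1, 3 or 6 (0.058 to 0.0696), and Fech without LAGIPRA 4 to 6 or Vehicle 3 or 6 (0.0599 to 0.0723).

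Of 24 glutathione genes 4 rose and 2 fell, 16.7% and 8.33% beside 8.7% and 5.03% of all genes. Gsta4, a transferase that clears lipid peroxidation products, ran from 7.50 to 8.29 (median 8.003) in Vehicle and from 8.31 to 8.71 (median 8.44) in LAGIPRA, a difference of 0.52 (SE 0.13, limma adjusted p = 0.016). Gsr, glutathione reductase, ran from 4.99 to 5.35 (median 5.19) and from 4.60 to 4.97 (median 4.82), a difference of -0.37 (SE 0.09, adjusted p = 0.0129). The groups did not overlap for either gene. The higher calls of the list numbered 2 without LAGIPRA 5 and 7 without Vehicle 5.

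Interferon-induced genes, which encode antiviral proteins, were lower. Of 29 tested 17 fell and 1 rose, 28 differences were below 0, and the median was -0.61, from -1.86 to 0.38. Ifit1, which binds foreign RNA, ran from 6.71 to 7.75 (median 7.36) in Vehicle and stood at 6.37, 5.93, 6.05, 5.73, 5.98 and 5.64 in LAGIPRA 1 to 6. All 6 lay below Vehicle, and the difference was -1.27 (SE 0.23, limma adjusted p = 0.00514). Irf7, the factor that amplifies the response, ran from 5.34 to 7.29 (median 6.55) and from 4.81 to 5.95 (median 5.39), a difference of -1.16 (SE 0.25, adjusted p = 0.00934). Bst2, tetherin, fell by 0.82 (SE 0.16, adjusted p = 0.00584) and Isg15, a ubiquitin-like protein, by 0.97 (SE 0.24, adjusted p = 0.0143).

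The spread of these genes was wide in Vehicle: the list's mean relative to the series ran from -0.46 to 1.07 there, from -0.39 to 0.05 in LAGIPRA 1 to 3 and from -0.72 to -0.46 in LAGIPRA 4 to 6. The sets' medians were -0.57 and -0.82. Leaving out LAGIPRA 5 left 6 lower calls, and leaving out Vehicle 5 gave 25. Once the one-read level was in the fit, the median was -0.54 with 0 calls. The member that rose, Ifi27, was chosen after its values were seen; it differed by 0.38 (SE 0.10, limma adjusted p = 0.0186), from a median of 9.56 to 9.93, and lost its call without LAGIPRA 4 (0.0535) or Vehicle 3 (0.0541).

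The interferon-stimulated response element, searched as AAANNGAAA on both strands, was in the promoters of 17 of 21 listed genes with an entry (81.0%), against 3258 of 27025 promoters (12.1%). Of these 17, 12 were of genes called lower or higher, where 17 of all 29 listed genes were called lower and 1 higher. Shown are 3 called genes, chosen for a small p among called genes with a match before the start. Capitals mark the matches in either orientation and merge where they overlap (RefSeq, GRCm38.p6, 5′ to 3′ on the gene's strand).
Ifit1, chr19:34640760-34640837, plus strand, 129 to 52 bases before the start: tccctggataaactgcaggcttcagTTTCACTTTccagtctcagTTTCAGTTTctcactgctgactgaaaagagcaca
Bst2, chr8:71537562-71537626, minus strand, 154 to 90 bases before the start: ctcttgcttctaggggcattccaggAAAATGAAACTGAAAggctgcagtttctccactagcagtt
Isg15, chr4:156200850-156200920, minus strand, 102 to 32 bases before the start: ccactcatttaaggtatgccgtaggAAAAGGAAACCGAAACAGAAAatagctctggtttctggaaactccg
Ifit1 holds 2 separate matches, Bst2 2 overlapping ones and Isg15 a run of 3. All 3 genes fell, but they were chosen among called genes, so their fall says nothing about the motif. The motif is a property of the list's genes and was not tested against their differences.

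Chemokines and cytokines showed the lowest median of the pathway lists, -0.95, with 14 of 27 tested members lower and 0 higher. Ccl2, the attractant of monocytes, ran from 8.67 to 9.95 (median 8.80) in Vehicle and stood at 7.70, 8.29, 7.56, 6.81, 6.67 and 7.48 in LAGIPRA 1 to 6, a difference of -1.60 (SE 0.44, limma adjusted p = 0.0224). Ccl7, its neighbour in function, ran from 7.46 to 8.73 (median 8.01) and from 5.60 to 7.43 (median 6.55), a difference of -1.56 (SE 0.40, adjusted p = 0.0164). Csf1, the growth factor of macrophages, ran from 6.59 to 6.96 (median 6.67) and from 5.44 to 6.40 (median 6.10), a difference of -0.74 (SE 0.14, adjusted p = 0.00514). For all 3 every LAGIPRA library lay below Vehicle and libraries 4 to 6 lay below 1 to 3. Ccl12 differed by -1.63 (SE 0.32, adjusted p = 0.00592), Ccl3 by -1.42 (SE 0.30, adjusted p = 0.00814) and Cxcl1, an attractant of neutrophils, by -1.40 (SE 0.34, adjusted p = 0.0142).

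The list's median was -0.54 in LAGIPRA 1 to 3, -1.28 in LAGIPRA 4 to 6, and -0.56 between the sets. Ccl2 lost its call without LAGIPRA 4 (0.0601), LAGIPRA 5 (0.0626) or Vehicle 3 (0.0641), and Ccl7 without LAGIPRA 5 (0.0502). In the fit that includes the one-read level, the median was -0.52 with 0 calls. Leaving out LAGIPRA 5 left 6 calls.

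Antigen presentation followed the same direction, with 9 of 18 genes lower, 0 higher, all 18 differences below 0 and a median of -0.40. B2m, the light chain of class I molecules, ran from 12.12 to 13.05 (median 12.62) in Vehicle and from 11.48 to 12.24 (median 11.84) in LAGIPRA, a difference of -0.72 (SE 0.13, limma adjusted p = 0.00491). Psmb8, a subunit of the immunoproteasome, fell by 0.64 (SE 0.14, adjusted p = 0.00994), and Nlrc5, the transactivator of class I genes, by 0.74 (SE 0.19, adjusted p = 0.0159). Tapbp, which loads peptides, fell by 0.30 (SE 0.07, adjusted p = 0.0115), evenly in the sets (-0.31 and -0.30). Psmb8, Nlrc5 and Tapbp showed no overlap between groups. Class I heavy chain genes resemble each other, so their reads may be split between members. The list's medians were -0.29 and -0.62 in the sets and -0.29 with 0 calls with the one-read level in the fit, and without LAGIPRA 5 it held 4 calls.

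Macrophage markers moved with these lists. Of 16 markers 14 were tested, 6 fell and 0 rose, and the median was -0.83; Clec4f, of liver macrophages, averaged 0.01 in Vehicle and 0.05 in LAGIPRA, and Timd4 was below the filter. Their summed level was 13.53 to 14.63 in Vehicle, 13.91 to 14.06 in LAGIPRA 1 to 3 and 12.90 to 13.25 in LAGIPRA 4 to 6 on the log2 scale, so the first set lay within the Vehicle range and the second below it. Fcgr1, an IgG receptor, ran from 6.13 to 8.10 (median 7.46) in Vehicle and stood at 6.45, 6.53, 5.82, 4.83, 5.10 and 5.67 in LAGIPRA 1 to 6, a difference of -1.60 (SE 0.40, limma adjusted p = 0.0153). Mrc1, the mannose receptor, fell by 0.94 (SE 0.24, adjusted p = 0.0163), and C1qa, a complement component, by 0.84 (SE 0.21, adjusted p = 0.0141). The part of macrophage content in the chemokine, interferon and antigen presentation results was not tested. Without LAGIPRA 4 there were 3 marker calls, and without Vehicle 5, the control lowest in these markers, 11. The markers' median with the one-read level in the fit was -0.40, with 0 calls.

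Other immune markers gave few calls. Of 7 neutrophil markers tested of 10, Lcn2 was the 1 that fell, and the summed level was 7.52 to 7.93 in Vehicle and 6.75 to 7.33 in LAGIPRA. Since Lcn2 is a large part of that sum, these ranges largely repeat its fall. Of 6 lymphocyte markers tested of 12, 0 were called by limma, with 2 lower at an unadjusted p under 0.05 and a median of -0.47. Of 9 erythroid markers 0 were called or reached an unadjusted p under 0.05, with a median of 0.52.

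Matrix genes were lower. Of 27 collagen and crosslinking genes 7 fell and 0 rose, with a median of -0.58, and of 38 other matrix genes 9 fell and 0 rose, with a median of -0.29. Tnc, tenascin C, a matrix protein of injured and remodelling tissue, ran from 5.61 to 7.25 (median 6.05) in Vehicle and stood at 4.77, 4.73, 4.96, 4.50, 4.004 and 3.66 in LAGIPRA 1 to 6, a difference of -1.75 (SE 0.30, limma adjusted p = 0.00444). Lox, lysyl oxidase, which crosslinks collagen, ran from 6.90 to 7.58 (median 7.30) and from 6.27 to 6.89 (median 6.55), a difference of -0.73 (SE 0.13, adjusted p = 0.00491). Thbs1, thrombospondin 1, ran from 6.75 to 7.80 (median 7.27) and from 5.31 to 6.29 (median 5.88), a difference of -1.43 (SE 0.32, adjusted p = 0.0105). For these genes every LAGIPRA library lay below every Vehicle library. The same held for Timp1, an inhibitor of matrix proteases, at -1.46 (SE 0.34, adjusted p = 0.0117), Col5a3, a fibrillar collagen chain, at -0.77 (SE 0.18, adjusted p = 0.0115), and Sparc, a collagen-binding protein, at -0.27 (SE 0.06, adjusted p = 0.0109).

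The collagen list showed one of the wider gaps between sets, with a median of -0.27 in LAGIPRA 1 to 3 and -0.86 in LAGIPRA 4 to 6, the latter with 17 of 27 genes called lower against Vehicle. Fitted together with the one-read level, the medians of the 2 lists were -0.25 and -0.19 with 0 calls. Without LAGIPRA 4 there were 4 and 5 calls, and without Vehicle 5 there were 17 and 13. Of 9 fibroblast markers 8 were tested and 0 were called by limma, with 4 lower at an unadjusted p under 0.05 and a median of -0.43. Their summed level was 12.25 to 13.20 in Vehicle, 12.70 to 12.75 in LAGIPRA 1 to 3 and 11.94 to 12.24 in LAGIPRA 4 to 6, and its part in the matrix result was not tested.

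Cell division genes had a median of -0.77, with 5 of 22 lower, 0 higher and all 22 differences below 0. Mki67, a marker of cycling cells, ran from 3.49 to 5.09 (median 4.74) in Vehicle and stood at 4.18, 2.53, 2.78, 3.19, 3.32 and 3.62 in LAGIPRA 1 to 6, a difference of -1.31 (SE 0.32, limma adjusted p = 0.0143). LAGIPRA 1 and 6 fell inside the Vehicle range. Mcm3, of the replication helicase, differed by -0.74 (SE 0.23, adjusted p = 0.0334) and Cdk1, the kinase of mitotic entry, by -1.28 (SE 0.42, adjusted p = 0.0465). Mcm3 lost its call without any 1 of LAGIPRA 4 to 6 or Vehicle 1, 3 and 6 (0.0663 to 0.0914), and Cdk1 also without LAGIPRA 3 or Vehicle 2 or 4 (0.0569 to 0.113). Once the one-read level was in the fit, the list's median was -0.35 with 0 calls, and without LAGIPRA 4 there was 1 call.

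Among vascular markers few genes were called. Cldn5, the claudin that seals endothelial junctions, ran from 11.66 to 12.33 (median 12.06) in Vehicle and stood at 11.30, 11.26, 11.19, 11.61, 11.24 and 11.50 in LAGIPRA 1 to 6. All 6 lay below Vehicle, and the difference was -0.68 (SE 0.13, limma adjusted p = 0.00524), -0.78 in the first set and -0.58 in the second. It stayed called with the one-read level in the fit (-0.81, adjusted p = 0.0283). Emcn, endomucin of veins and capillaries, ran from 6.30 to 6.46 (median 6.34) and from 6.70 to 7.01 (median 6.77), a difference of 0.47 (SE 0.11, adjusted p = 0.0126), also with no overlap. These were the 2 calls among 14 endothelial markers, 1 higher and 1 lower (7.14% each, near the 8.7% and 5.03% of all genes). The list's median was -0.02, with 7 positive and 7 negative differences. Its summed level was 12.86 to 13.16 in Vehicle and 12.41 to 12.57 in LAGIPRA. Cldn5 is a large part of this sum, so the gap largely repeats its fall. Of 12 pericyte and smooth muscle markers 1 was called (8.33%): Cnn1, calponin of smooth muscle, rose by 0.81 (SE 0.21, adjusted p = 0.0163). Of 8 Schwann cell markers S100b, which adipocytes also express, rose by 0.35 (SE 0.12, adjusted p = 0.0448), a call lost without any 1 of LAGIPRA 3 to 6 or Vehicle 1, 2, 3 and 6 (0.0588 to 0.119).

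Outside the lists, several single genes showed large differences with no overlap between groups. Pon1, paraoxonase 1, an esterase of high-density lipoprotein, had the smallest p of all genes: it ran from 4.03 to 5.21 (median 4.51) in Vehicle and stood at 6.19, 5.43, 5.73, 5.76, 5.78 and 5.86 in LAGIPRA 1 to 6, a difference of 1.26 (SE 0.17, limma adjusted p = 0.00114). The sets gave 1.26 and 1.27, and it stayed called with the one-read level in the fit (1.17, adjusted p = 0.0283). Poln, a DNA polymerase, ran from 5.23 to 5.95 (median 5.54) and from 6.24 to 6.66 (median 6.51), a difference of 0.90 (SE 0.14, adjusted p = 0.00235), and stayed called likewise (0.72, adjusted p = 0.0394). Ube2ql1, of the ubiquitin-conjugating enzyme family, rose most among genes of at least median level, by 1.74 (SE 0.48, adjusted p = 0.023), but lost its call without LAGIPRA 4 (0.0556), LAGIPRA 5 (0.0687) or Vehicle 1 (0.0527).

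Further increases were of membrane and secreted proteins. Trpv3, a warmth-gated cation channel, ran from 3.38 to 4.42 (median 4.17) in Vehicle and from 4.57 to 5.46 (median 5.02) in LAGIPRA, a difference of 0.95 (SE 0.20, limma adjusted p = 0.00787). Nrtn, the neurotrophic factor neurturin, rose by 0.89 (SE 0.19, adjusted p = 0.00726). Pm20d1, a secreted enzyme that joins fatty acids to amino acids, ran from 3.96 to 4.52 (median 4.26) and from 4.77 to 5.32 (median 5.02), a difference of 0.81 (SE 0.14, adjusted p = 0.00376). For these 3 genes libraries 4 to 6 also lay above 1 to 3. Among the decreases, Ch25h, which makes 25-hydroxycholesterol in activated macrophages, ran from 6.68 to 7.68 (median 7.24) and from 5.19 to 6.39 (median 6.13), a difference of -1.17 (SE 0.22, adjusted p = 0.00514).

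Set directly against each other, LAGIPRA 4 to 6 and LAGIPRA 1 to 3 gave no call, so the genes with the widest gaps are listed as values. Kctd21, of a family of ubiquitin ligase adaptors, stood at 4.96, 3.39 and 5.55 in libraries 1 to 3 and at 6.07, 6.02 and 5.70 in 4 to 6, and Vehicle ran from 5.14 to 6.59. Brinp1, a gene of neurons, stood at 5.12, 5.41 and 5.52 and at 4.61, 2.17 and 4.48, where Vehicle ran from 3.72 to 4.93. Prrt4 stood at 5.21, 4.21 and 5.46 and at 6.13, 6.65 and 5.53. In each case 1 library lay far from the other 2 of its set. Macrophage genes were also among the widest gaps: Spp1, osteopontin, stood at 6.82, 5.18 and 5.59 and at 4.52, 4.93 and 3.66, and Ccr2, the receptor of Ccl2, at 5.63, 5.24 and 5.69 and at 3.82, 4.65 and 3.67. Cd5l, a macrophage protein, stood at 5.82, 3.66 and 3.78 and at 2.56, 2.75 and 2.82, with a Vehicle range of 1.56 to 7.03, and Gdf3, a growth factor of the TGF-beta family, at 6.00, 5.93 and 5.73 and at 4.51, 4.64 and 4.26.

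Against pair-fed vehicle, LAGIPRA gave 2046 called genes of 17263 (11.9%). The comparison uses the same LAGIPRA libraries, so its values are set beside those above only to show where some of the named genes stood. Fasn, uncalled against Vehicle (0.45), was 3.28 above PairFedVehicle (SE 0.37, limma adjusted p = 4.5e-06). Thrsp was 1.85 (adjusted p = 6.15e-06), Ptgds 1.57 (4.76e-06), Grb14 1.29 (1.16e-07), Gpd1 1.25 (3.33e-05), Slc2a4 1.23 (3.68e-05), Pon1 0.77 (0.00397) and Pdhx 0.63 (0.00035) above it. Ifit1 was lower by -1.001 (adjusted p = 0.0062), Hmox1 by -1.16 (0.0289) and Cpt1a by -0.68 (0.00389). Values near 0 were seen for Ucp1 (-0.03, adjusted p = 0.893), Prodh (0.06, 0.869) and Cldn5 (0.06, 0.827), which all differed from free-fed Vehicle. Acadl (0.10, 0.552), Bcat2 (0.07, 0.59) and Col5a3 (0.09, 0.78) were also called against Vehicle but not here. The same held for Csf1 (0.20, 0.362), Cxcl1 (0.23, 0.72) and Ch25h (0.49, 0.156), which were lower than in Vehicle. Gipr differed by -0.51 (adjusted p = 0.083) and Ccl2 by -0.70 (0.339), while Sparc, lower than in Vehicle, was 0.25 above PairFedVehicle (0.00903).

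**Figure D5:**
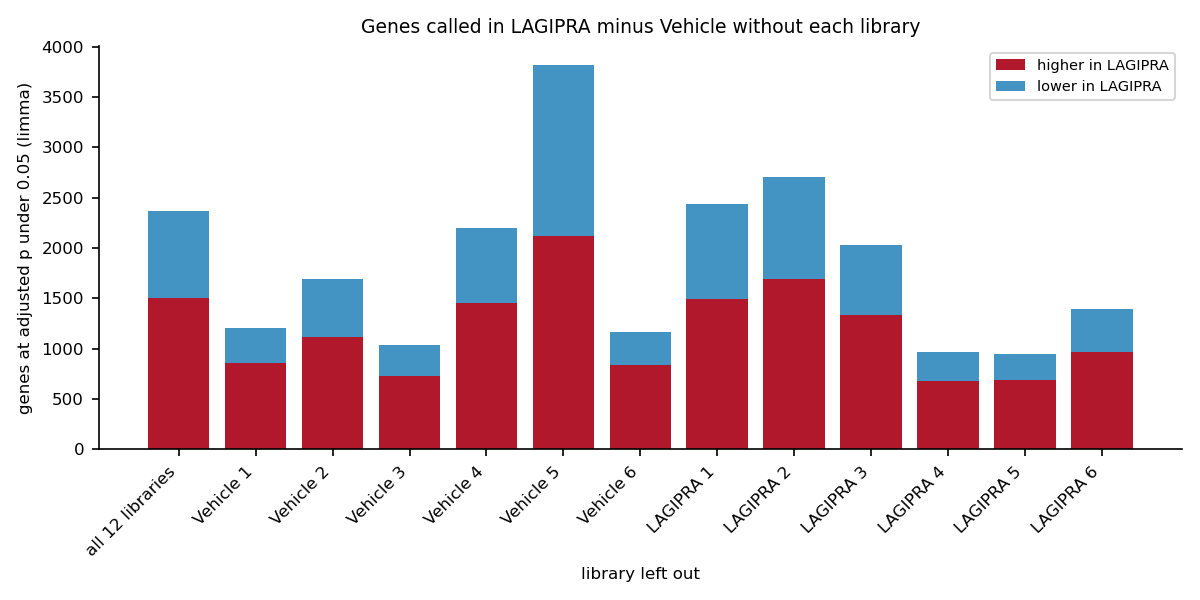
Number of genes at a limma adjusted p under 0.05 in LAGIPRA minus Vehicle (y axis) with all 12 libraries and without each library in turn (x axis); red is higher and blue lower in LAGIPRA. The count ranges from 945 without LAGIPRA 5 to 3819 without Vehicle 5, around 2370 with all libraries.

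The number of called genes depended on single libraries. Without LAGIPRA 5 it was 945, without LAGIPRA 4 971, without Vehicle 3 1039, without Vehicle 6 1166, without Vehicle 1 1207 and without LAGIPRA 6 1391, and without Vehicle 5 it was 3819. Of 139 named genes called, 98 stayed called through the loss of each single library. Without the 3 libraries poorest in muscle, a choice made after seeing the data, 150 genes were called, 114 higher and 36 lower, and none of the 49 lists kept more than 3 calls in number. List medians without these 3 libraries were 0.34 for complex I, 0.24 for the mitochondrial ribosome, 0.33 for branched-chain amino acid breakdown, -0.83 for chemokines, -0.45 for the interferon response, -0.24 for antigen presentation, -0.47 for collagens and -0.64 for macrophage markers.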

How the data were processed

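RNA from brown adipose tissue of 24 mouse samples, 6 per group, was extracted with TRIzol and a lipid tissue column kit and selected for polyadenylated transcripts, per the labels' protocols. The submitters' processing notes name cutadapt 1.9.1 and GSNAP. The roles of these tools, the genome build, the annotation, the counting method and the strand setting are not given in the sources used here. Values came as 1 table, deposited by the authors, of log2 levels for 23017 genes, in which the libraries share nearly the same distribution, so quantile normalization was inferred from the values, which run from -0.50 to 22.3; an offset near 1 before the logarithm was likewise inferred. Read counts were not used, so depth is unknown.

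Genes were identified by the Entrez numbers and symbols of the table; a symbol on 2 rows was told apart by its number. The 25% of genes with the lowest mean over 24 libraries (5754 genes, mean below 2.86) were left out. The remaining 17263 were fitted with limma 3.58.1 in R 4.3.3 on all 24 libraries with 1 mean per group, a mean-variance trend and Benjamini-Hochberg adjustment at 0.05; a fit with separate means for LAGIPRA 1 to 3 and 4 to 6 gave their contrasts. The script was tested on simulated data. Tables and figures were made with Python 3.11.15, numpy 2.4.6, pandas 2.3.3 and matplotlib 3.10.9. Library properties were compared with two-sided exact permutation tests. A list's mean in a library is the mean over its tested members of the value minus that gene's mean over 24 libraries; a summed level is the log2 of the members' summed linear values.

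Named genes were Gipr, Ucp1 and Slc2a4; members of the 15 largest increases and decreases without overlap at or above the median level of 4.56; up to 4 called members per pathway list and 3 per marker list with the smallest p; and the widest gaps between LAGIPRA 4 to 6 and 1 to 3. Some genes that this rule selects are not reported here. Further genes are named as chosen after their values were seen, as are Adrb3, Ppargc1a, Dio2, Insr, Lep, Adipoq, Sln, Atp2a1, Hoxc10, Clec4f and Timd4. The comparison, the 38 pathway and 11 marker lists and the tests were chosen with earlier results of these data known. Alternatives were other filters, another normalization, centring, no trend, library weights, covariates for the one-read level, muscle content and transcript length (15555 tested genes, 90.1%, with a GENCODE M21 length), the 12 libraries alone, a replicate block, either set alone and each library left out.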

Additional observations from a re-analysis of the deposited data

Results flagged for a closer look

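Of 302 groups of 6 libraries examined for a library far from the rest, 14 (4.64%) held one, where chance gives about 1 in 20. LAGIPRA 5 was the low library for Creb1 (3.80), Bst2 (6.65), Timp1 (4.08) and Brinp1 (2.17) and the high one for Grb14 (7.76). LAGIPRA 2 stood apart for Timm9 (6.05, low) and Gsk3b (5.20, high), and LAGIPRA 1 for Rps3 (10.04, high) and Cd5l (5.82, high). LAGIPRA 6 stood below the others for Cox8b (15.99), whose other LAGIPRA libraries share the value 16.21 after normalization. In Vehicle, library 4 was high for Gipr (3.50) and for the number of genes at the zero level (1080), and library 5 was low for Mrc1 (6.41) and Tbc1d1 (4.16).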

How the results depend on the processing

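Of 2370 genes called in LAGIPRA minus Vehicle, the count became 4783 with library weights, 1484 with a muscle covariate, 45 with the one-read level as covariate, 0 with LAGIPRA 1 to 3 only and, in a choice made after seeing the data, 150 without the 3 libraries lowest in muscle. Leaving out 1 library gave 945 to 3819. Other settings gave 1921 (replicate block) to 3081 (LAGIPRA 4 to 6 only). Same-numbered libraries correlated between -0.04 and 0.38 in their deviations, with 5 of 6 pairs over 0.1 and 3 of 6 correlating best with their own number; since 1 pair was not over 0.1 and the labels attach nothing to the numbers, they were not taken to pair the samples. Of 139 named called genes, 12 were not called with the replicate block. No paired analysis was possible for LAGIPRA 4 to 6 minus 1 to 3 because these sets share no numbers; its 0 calls became 1 with no filter and 34 with library weights. Without single libraries the difference in one-read level was 0.24 to 0.37, in genes at the zero level 121 to 185, and in length slope -0.0357 to -0.0253; without LAGIPRA 4 they were 0.24, 121 and -0.0258, past the threshold no longer. Differences that reversed were of uncalled genes: Fasn -0.18 with the one-read covariate and -0.073 with LAGIPRA 1 to 3 only, Kctd21 0.10 with LAGIPRA 4 to 6 only, and Brinp1 between -0.045 (without LAGIPRA 3; -0.023 without LAGIPRA 2) and 0.63 with single libraries left out and -0.65 with LAGIPRA 4 to 6 only. The cause was not tested. Of 139 named called genes, 4 (Cldn5, Lmf1, Poln and Pon1) were called with the one-read covariate and 30 without the 3 libraries lowest in muscle.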
